A study of Mus musculus with 36 samples.

Results

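The interferon-inducible GTPases described here are 9 genes of 2 families, the immunity-related GTPases Iigp1, Igtp, Irgm1 and Irgm2 and the guanylate-binding proteins Gbp2, Gbp2b, Gbp3, Gbp6 and Gbp7. They are 9 of the 18193 genes that had a probe set of their own on the array. A gene was represented by the probe set whose platform annotation names that symbol alone, and where there were several, by the one with the highest mean over all 36 arrays. Several of the 9 had been picked because their signal was higher at 3 months than at 1 month of age, so their changes with age are given as values without a test. Their levels in the 6 cell populations were tested, averaged over ages.

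RNA was measured on 36 Affymetrix mouse arrays of cells sorted from the thymus of male, wild-type C57BL/6J mice that had received no treatment named in the labels. The 6 populations were fibroblasts, epithelial cells of the thymic cortex (cTEC), epithelial cells of the medulla with high (mTEChi) or low (mTEClo) CD80 and MHC class II, and dendritic cells (DC) with or without Sirpa (Sirpa+ DC and Sirpa- DC). Mice of 3 ages were used (1 month, 3 months and 6 months), with 2 arrays per population and age, which gave 18 groups, 6 arrays per population and 12 per age. Each label speaks of 1 mouse, but the design text gives 2 mice for every age, so several populations may come from the same animals, and p-values may reflect technical spread alone.

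Values are the authors' normalised log2 signals, in which a difference of 1 is 2-fold. The number of arrays limits the precision, and a level of one probe set cannot be set against that of another. The closest match of every one of the 36 arrays lay within its own population, and the arrays of a group correlated at 0.949 to 0.994. The marker lists of cTEC, mTEClo, mTEChi, both DC populations and fibroblasts had their highest mean signal in the population they mark. Among lists of other cells, the 7 measured thymocyte markers all averaged above the pooled median of all signals (5.65) in fibroblasts, where their mean per array ran from 8.58 to 10.92. The mean of the 6 fibroblast markers in the same population was 12.88 at 1 month, 11.77 at 3 months and 10.54 at 6 months. In sorted bulk RNA, fewer cells of a type and less RNA per cell cannot be told apart.

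Both families are classical targets of interferon-gamma, which acts through its receptor to raise Irf1 and then the GTPases. In mouse cells the GTPases defend the cell from within, by gathering on vacuoles that hold intracellular parasites or bacteria and helping to break them open. Iigp1 is an effector that loads onto such vacuoles, whereas Irgm1, Irgm2 and Igtp sit on the cell's own membranes and keep effectors from being switched on there. The guanylate-binding proteins are larger GTPases that coat vacuoles and escaped bacteria and feed signals to inflammasomes. The thymic stroma makes interferons without infection, and interferon-induced genes are known to be active in it.

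The promoters are shown first, since they hold the element that interferon-induced genes are known to share. RefSeq start-site windows of 300 bases in build GRCm38.p6, from 250 bases before to 50 bases after the annotated start, were matched by symbol for 7 of the 9 genes. Gbp6 and Iigp1 are named only. Both strands were searched for the core of the interferon-stimulated response element that Irf proteins bind, which is GAAA, then 2 bases of any kind, then GAAA again. It was found for 7 of the 7 genes, against 3.99% of the 27025 genes with such a window. A match is a description of the letters, and binding was not measured.

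The stretches of 80 bases around the element are given 5′ to 3′ on the gene's strand, with the matches to the element, as written or reverse-complemented, in capitals. They lie at chr11:58199487-58199566 on the plus strand (Igtp), chr11:48871406-48871485 on the minus strand (Irgm1), chr11:58214878-58214957 on the plus strand (Irgm2), and, all on the plus strand, at chr3:142620569-142620648 (Gbp2), chr3:142594675-142594754 (Gbp2b), chr3:142559964-142560043 (Gbp3) and chr3:142530248-142530327 (Gbp7).
Igtp: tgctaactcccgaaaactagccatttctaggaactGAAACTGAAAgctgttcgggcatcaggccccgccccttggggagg
Irgm2: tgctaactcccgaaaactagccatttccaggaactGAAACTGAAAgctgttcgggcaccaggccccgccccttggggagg
Irgm1: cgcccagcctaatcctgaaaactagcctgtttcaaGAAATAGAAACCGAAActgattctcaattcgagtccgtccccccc
Gbp2: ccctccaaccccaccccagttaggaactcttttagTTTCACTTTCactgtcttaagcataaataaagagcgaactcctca
Gbp2b: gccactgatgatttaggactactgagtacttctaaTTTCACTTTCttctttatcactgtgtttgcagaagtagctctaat
Gbp3: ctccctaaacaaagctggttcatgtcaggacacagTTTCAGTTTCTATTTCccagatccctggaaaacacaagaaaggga
Gbp7: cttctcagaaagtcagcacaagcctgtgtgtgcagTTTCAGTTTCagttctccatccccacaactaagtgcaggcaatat
Irgm1 and Gbp3 each held 2 overlapping matches. Gbp3 has 2 windows in the table, of which 1 held the element. All matches in the immunity-related GTPases read the element as written, and all those in the guanylate-binding proteins read as its reverse complement. Igtp and Irgm2, neighbours on chromosome 11 with no protein-coding gene between them in RefSeq, shared an unbroken run of 61 identical bases within their windows. No other pair shared a run longer than 13 bases. Gbp7, Gbp3, Gbp2b and Gbp2 lie side by side on chromosome 3, likewise with no protein-coding gene between neighbours.

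**Figure D1:**
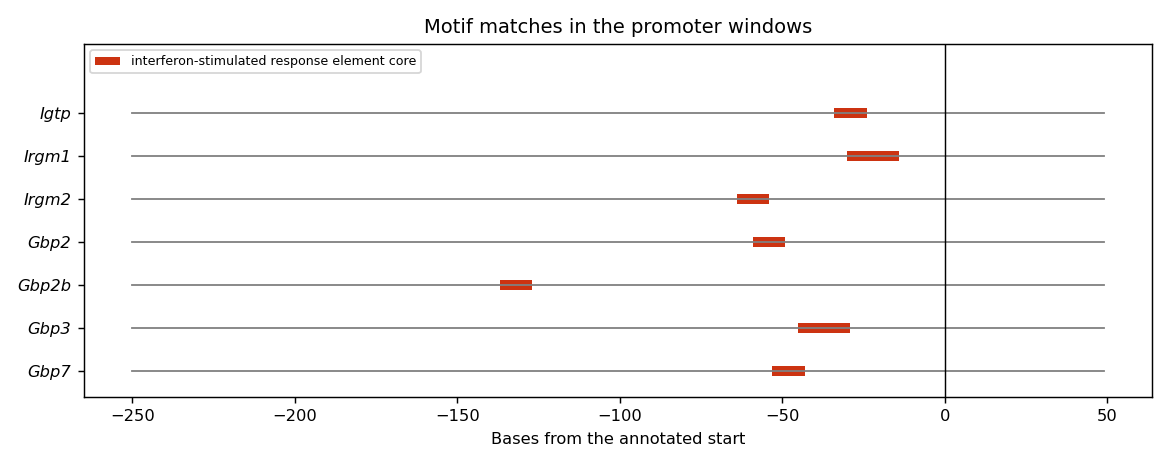
Positions of the element in the promoter windows of the 7 genes with a RefSeq window, in bases from the annotated start; each mark is 1 match on either strand. The first base of the interferon-stimulated element lies closest to the start in Irgm1 (−24, its second match) and farthest in Gbp2b (−137).

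Most of the GTPases had their highest signal in mTEClo and their lowest in Sirpa- DC. The mean over 6 arrays was highest in mTEClo for 7 of the 9 genes and in mTEChi for the other 2, Gbp2b and Gbp6. It was lowest in Sirpa- DC for 6 genes. Gbp2b was lowest in cTEC, Irgm1 in fibroblasts and Irgm2 in mTEChi. The plot of single arrays shows that populations next to each other in these orders often overlapped.

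**Figure D2:**
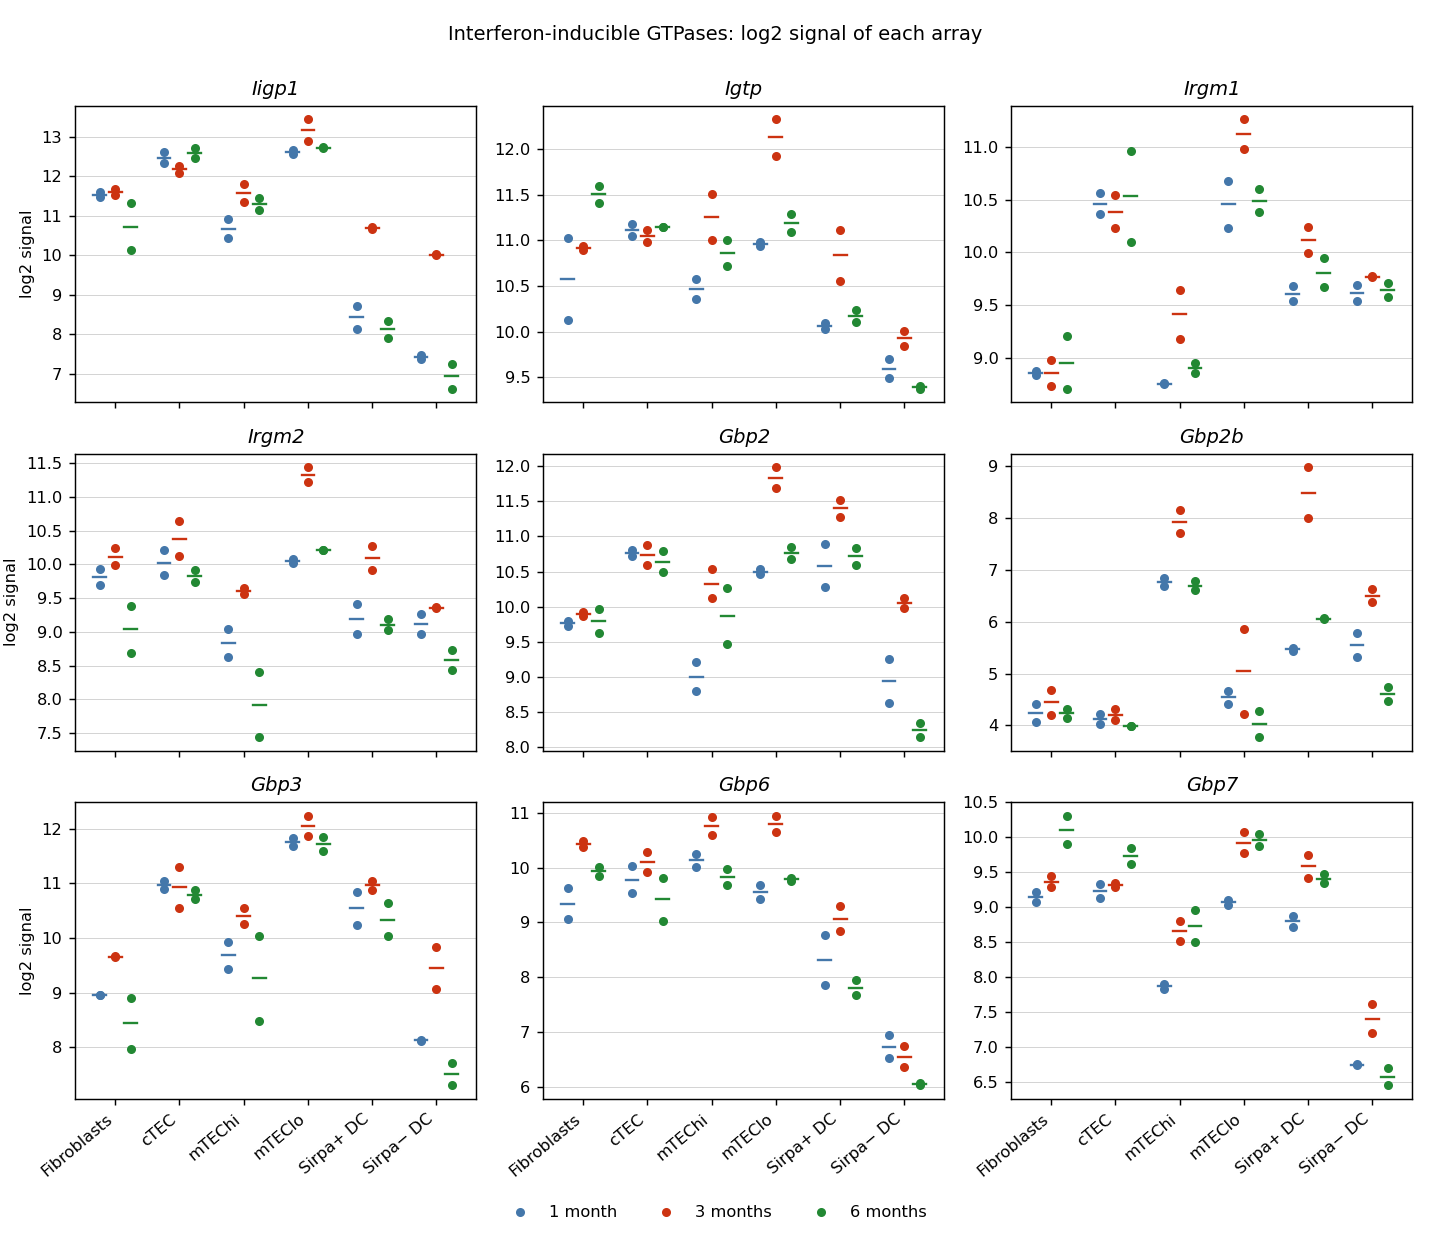
log2 signal of the 9 GTPases in each of the 36 arrays, by population and age (1 panel per gene; each point is 1 array, the colour showing age in months, and the short line is the mean of the 2 arrays of an age). Iigp1 spans 6.62 to 13.45 with both DC populations lowest, and Gbp2b stands apart, with its highest population means in mTEChi and Sirpa+ DC.

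Iigp1, the effector, had the widest range between populations. Its array values had a lowest, median and highest of 12.56, 12.72 and 13.45 in mTEClo, 12.10, 12.40 and 12.72 in cTEC, 10.13, 11.50 and 11.67 in fibroblasts, 10.43, 11.25 and 11.81 in mTEChi, 7.91, 8.53 and 10.72 in Sirpa+ DC, and 6.62, 7.44 and 10.03 in Sirpa- DC. The means of fibroblasts and mTEChi did not differ by more than their spread, and nor did those of the DC populations. Between the other neighbours the gap was larger than the SD of either.

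The 3 regulators were flatter. Igtp, which sits mainly on the endoplasmic reticulum, averaged 11.43 ± 0.57 in mTEClo, 11.10 ± 0.08 in cTEC, 11 ± 0.51 in fibroblasts, 10.86 ± 0.40 in mTEChi, 10.35 ± 0.42 in Sirpa+ DC and 9.64 ± 0.26 in Sirpa- DC (SD, n = 6 each). From mTEClo down to mTEChi no neighbours in this order differed by more than their SD. Irgm1, a regulator found on the Golgi and on lysosomes, averaged 10.69 ± 0.38 in mTEClo and 10.46 ± 0.30 in cTEC, then 9.85 ± 0.26 in Sirpa+ DC and 9.68 ± 0.10 in Sirpa- DC, and last 9.03 ± 0.34 in mTEChi and 8.89 ± 0.18 in fibroblasts (SD, n = 6 each). The populations fell into 3 pairs, and the gaps exceeded the SD of both neighbours only between pairs. Irgm2, a Golgi regulator, fell off evenly, with 10.53 ± 0.63 in mTEClo and 8.79 ± 0.82 in mTEChi at the ends (SD, n = 6 each), and no neighbours differed by more than their SD.

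Among the guanylate-binding proteins, Gbp2, which is recruited to Toxoplasma vacuoles in mouse cells, averaged 11.03 ± 0.64 in mTEClo, 10.90 ± 0.45 in Sirpa+ DC and 10.71 ± 0.15 in cTEC (SD, n = 6 each). It averaged 9.82 ± 0.13 in fibroblasts, 9.74 ± 0.68 in mTEChi and 9.08 ± 0.84 in Sirpa- DC, and only the gap between cTEC and fibroblasts exceeded the SD of both neighbours. Gbp3 averaged 11.84 ± 0.22 in mTEClo, 10.90 ± 0.26 in cTEC, 10.61 ± 0.40 in Sirpa+ DC, 9.78 ± 0.74 in mTEChi, 9.02 ± 0.62 in fibroblasts and 8.36 ± 0.93 in Sirpa- DC (SD, n = 6 each). Gbp6 lay between 9.77 and 10.24 on average in the epithelial populations and fibroblasts, which did not differ by more than their SD from one neighbour to the next, and at 8.40 ± 0.66 in Sirpa+ DC and 6.44 ± 0.36 in Sirpa- DC (SD, n = 6 each). Gbp7, also recruited to parasite vacuoles in the mouse, lay between 9.26 and 9.65 on average in mTEClo, fibroblasts, cTEC and Sirpa+ DC, then at 8.42 ± 0.46 in mTEChi and 6.91 ± 0.42 in Sirpa- DC (SD, n = 6 each).

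Gbp2b, which older literature on the mouse calls Gbp1, had another order. Its lowest, median and highest array values were 6.60, 6.81 and 8.14 in mTEChi, 5.44, 6.05 and 8.97 in Sirpa+ DC, 4.47, 5.55 and 6.62 in Sirpa- DC, 3.78, 4.35 and 5.86 in mTEClo, 4.08, 4.26 and 4.69 in fibroblasts, and 3.98, 4.07 and 4.31 in cTEC. It was above the pooled median in 6 of 6 mTEChi arrays, in 1 of 6 mTEClo arrays and in 0 of 6 arrays of fibroblasts and of cTEC, so its differences from those populations rest on dim signal. Over the 18 group means, the Pearson correlation of Gbp2b with the other 8 genes ran from −0.29 (Irgm2) to 0.06 (Gbp2). Each of the other 8 had a correlation of 0.72 to 0.89 with the member most like it. The groups share the normalisation and may share animals, and these correlations describe the 18 means alone. The probe set of Gbp2 is of a kind that may also bind near-identical copies, so its level may include related transcripts. Those of Gbp3 and Iigp1 are of a kind that may bind several transcripts of a gene, so their levels may include these. Over the 36 arrays, another probe set correlated with the one used at 0.983 for Gbp2 and 0.991 for Iigp1, and Gbp3 had no other.

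mTEChi, the medullary cells that include those expressing Aire, carried less RNA of most GTPases than mTEClo, and more of Gbp2b. Here a gene is called higher or lower at an adjusted p under 0.05 and a difference of at least 2-fold, with limma's moderated test over the 14497 genes tested and Benjamini-Hochberg adjustment. All 9 GTPases were among the genes tested. Of the 9, 6 were lower in mTEChi and 1 was higher, while over all genes tested 7.81% were lower and 11.8% higher (19.6% in either direction). The median difference of the 9 was −1.30, against −0.04 over all genes tested.

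Gbp3 fell by 2.06 ± 0.21 on the log2 scale in mTEChi, with 8.49 to 10.55 there against 11.59 to 12.24 in mTEClo (SE; limma adjusted p = 8.36e-09). Irgm2 had a log2 difference of −1.75 ± 0.15 (SE; adjusted p = 3.77e-10), Irgm1 had −1.66 ± 0.13 (adjusted p = 7.83e-11) and Iigp1 −1.65 ± 0.17 (adjusted p = 5.72e-09). Gbp2 differed by −1.30 ± 0.14 and Gbp7 by −1.23 ± 0.11. Every mTEChi array lay below every mTEClo array for 5 of the 9 genes, which held for 13.5% of all genes tested. The exception among the 6 that fell was Gbp2, whose highest mTEChi array (10.54) was just above its lowest mTEClo array (10.46). Gbp2b was higher in mTEChi, with a measured log2 difference of 2.59 ± 0.20 (adjusted p = 3.95e-11) that is no exact fold, since only 1 of 6 mTEClo arrays was above the pooled median. Its arrays did not overlap, with every mTEChi array above every mTEClo array as for 15.1% of all genes tested.

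Igtp had a log2 difference of −0.56 ± 0.13 (adjusted p = 6.39e-04), short of 2-fold. Gbp6 had 0.19 ± 0.16 (adjusted p = 0.336), and its second probe set gave −0.30, so its direction was not settled. With only 6-month arrays, Gbp2 had −0.90 and was no longer past 2-fold. The mean of 7 macrophage markers ran from 7.40 to 7.93 over mTEChi arrays and from 6.19 to 6.82 over mTEClo arrays, with 6 of the 7 averaging above the pooled median in mTEChi (all but Mertk) and 3 in mTEClo (not C1qa, C1qc, Cd68 and Mertk). Their part in the result was not tested.

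**Figure D3:**
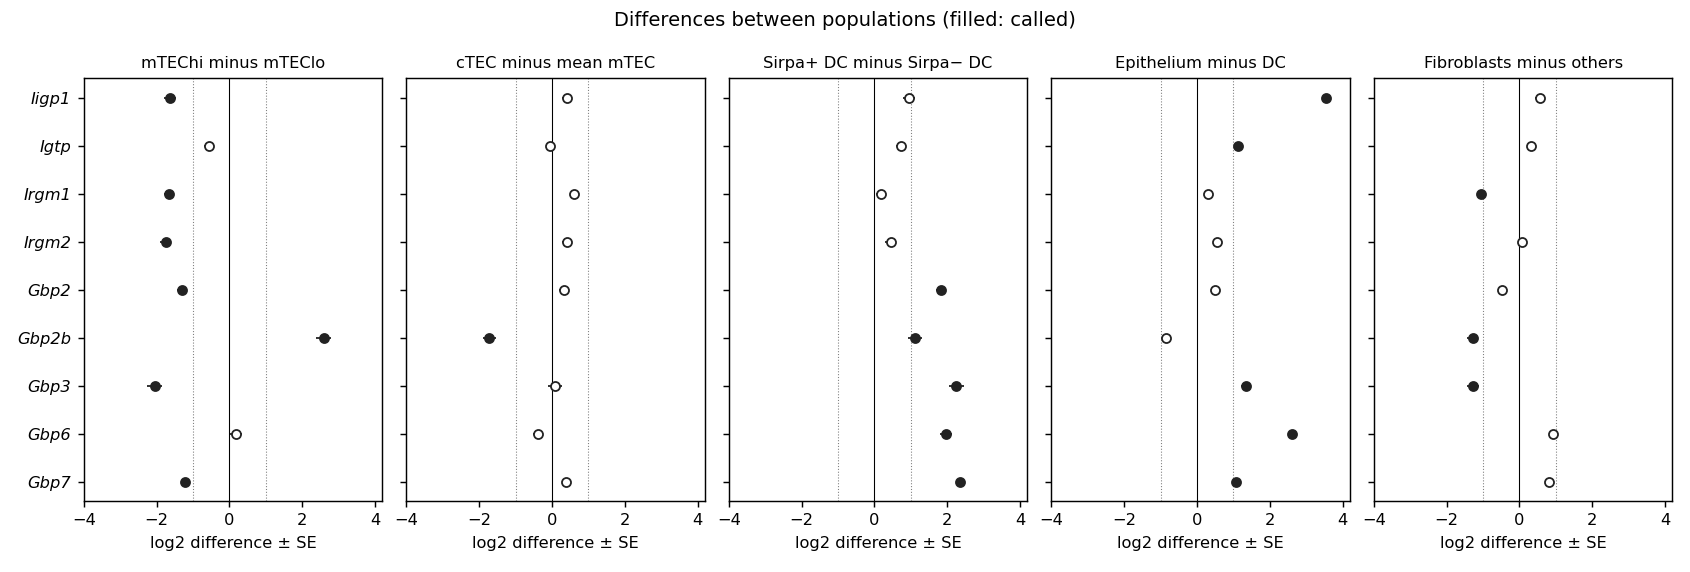
log2 difference ± SE of each GTPase in the 5 comparisons of populations (limma, 6 arrays per population; filled points are called, and dotted lines mark 2-fold). From mTEChi minus mTEClo to fibroblasts minus the other 5 populations, 7, 1, 5, 5 and 3 of the 9 genes are filled.

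Between cTEC and the mean of the mTEC populations, 1 of the 9 was called, against 13.6% of all genes tested. This was Gbp2b, which was lower in cTEC, with a measured log2 difference of −1.72 ± 0.17 (SE; limma adjusted p = 5.54e-09) and 0 of 6 cTEC arrays above the pooled median, so that the difference gives no exact fold. Its level in cTEC lay beside that in mTEClo, 4.11 ± 0.13 in cTEC and 4.54 ± 0.71 in mTEClo (SD, n = 6 each). The other 8 had log2 differences between −0.38 (Gbp6) and 0.60 (Irgm1).

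Sirpa+ DC correspond to conventional type 2 dendritic cells and Sirpa- DC to type 1. Averaged over ages, Sirpa+ DC had more RNA of all 5 guanylate-binding proteins than Sirpa- DC. Of the 9 GTPases, 5 were called higher and 0 lower, against 3.87% higher and 5.37% in either direction over all genes tested. Gbp7 had 8.71, 9.38 and 9.75 as the lowest, median and highest of 6 Sirpa+ arrays, against 6.45, 6.74 and 7.62 in Sirpa- arrays. Its log2 difference was 2.35 ± 0.11 (SE; limma adjusted p = 2.01e-14), and the second probe set of the gene gave 3.10. Gbp3 differed by 2.25 ± 0.21 (adjusted p = 9.59e-09), Gbp6 by 1.96 ± 0.16 (adjusted p = 1.08e-09) and Gbp2 by 1.82 ± 0.14 (adjusted p = 3.44e-10).

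Gbp2b differed by 1.12 ± 0.20 in the same comparison (adjusted p = 1.17e-04). By age its difference was −0.09 at 1 month, 1.99 at 3 months and 1.45 at 6 months. Gbp2b was dim here, above the pooled median in 4 of 6 Sirpa+ arrays and 3 of 6 Sirpa- arrays. With 1- and 6-month arrays together its difference was 0.68 and not called (adjusted p = 0.0601), with 6-month arrays alone it was 1.45 and called (adjusted p = 0.00656), and without the second Sirpa+ array at 3 months it was 0.96, short of 2-fold. The immunity-related GTPases had 0.96 ± 0.17 (Iigp1), 0.72 ± 0.13 (Igtp), 0.45 ± 0.15 (Irgm2) and 0.17 ± 0.13 (Irgm1), with adjusted p from 9.22e-05 for Iigp1 to 0.449 for Irgm1. Iigp1 passed 2-fold with 6-month arrays alone (1.19) and when any of 3 single arrays was left out, with values of 1.03 to 1.06. All Sirpa+ arrays lay above all Sirpa- arrays for 5 of the 9 genes (Igtp, Gbp2, Gbp3, Gbp6 and Gbp7), as they did for 6.39% of all genes tested. The mean of the 7 macrophage markers ran from 10.30 to 11.25 over Sirpa+ arrays and from 7.27 to 9.39 over Sirpa- arrays, with all 7 above the pooled median in both. Their part in the result was not tested.

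Thymic epithelium had far more Iigp1 and Gbp6 than dendritic cells. Of the 9 GTPases, 5 were called higher in the mean of the 3 epithelial populations than in the mean of the 2 DC populations and 0 lower, against 15.9% higher and 24.5% in either direction over all genes tested. Iigp1 was 11.6-fold higher, a log2 difference of 3.54 ± 0.11 (SE; limma adjusted p = 5.85e-20). By age that difference was 3.99 at 1 month, 1.95 at 3 months and 4.67 at 6 months. Gbp6 was 6.06-fold higher (2.60 ± 0.11, adjusted p = 1.84e-17), with 9.02 to 10.95 in epithelial arrays and 6.02 to 9.29 in DC arrays.

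Gbp3 (1.35 ± 0.14), Igtp (1.14 ± 0.08) and Gbp7 (1.08 ± 0.07) were the others called in epithelium. The DC populations were unlike each other here. Gbp7 averaged 9.16 in epithelium, 9.26 in Sirpa+ DC and 6.91 in Sirpa- DC. Gbp3 averaged 10.84, 10.61 and 8.36 in the same order, so both calls rest mainly on low Sirpa- DC. Igtp averaged 11.13, 10.35 and 9.64. Irgm2, Gbp2 and Irgm1 differed by 0.56, 0.50 and 0.30, short of 2-fold. Gbp2b differed the other way, by −0.85 ± 0.13 (adjusted p = 1.66e-06). For none of the 9 did the arrays separate fully, while 8.39% of all genes tested were higher in every epithelial array and 5.39% lower. Iigp1 came down to 10.43 in 1 epithelial array, of mTEChi at 1 month, and reached 10.72 in 1 DC array, of Sirpa+ DC at 3 months. The 3′ minus 5′ difference of control probe sets, a measure of RNA quality, averaged 2.18 in cTEC, 1.90 in mTEChi and 2.35 in mTEClo, against 1.66 in Sirpa+ DC and 1.65 in Sirpa- DC. With that value as a covariate the same 5 genes were called higher, and Gbp2b was called lower, at −1.14.

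Fibroblasts had a mixed profile. Of the 9 genes, 3 were called lower than in the mean of the other 5 populations and 0 higher, against 9.98% lower and 18.4% in either direction over all genes tested. Gbp2b differed by −1.29 ± 0.15, Gbp3 by −1.28 ± 0.16 and Irgm1 by −1.05 ± 0.10 (SE; limma adjusted p from 2.09e-09 for Irgm1 to 2.27e-07 for Gbp3). Gbp6 and Gbp7 leaned higher, by 0.92 ± 0.13 and 0.81 ± 0.09, short of 2-fold. The thymocyte markers, at 8.58 to 10.92 per fibroblast array, ran from 5.30 (the lowest mTEClo array) to 8.52 (the highest cTEC array) elsewhere. With their mean as a covariate 0 of the 9 were called, with differences of −1.35 for Gbp2b, −1.16 for Gbp3 and −0.79 for Irgm1 (limma adjusted p from 0.212 to 0.34). Over all genes tested 651 were then called higher and 668 lower, against 1214 and 1447 without it. Every fibroblast array had a higher marker mean than every other array, so this fit can hardly separate the markers from the population. Irgm1 also fell short of 2-fold without the first 6-month fibroblast array (−0.97), and Gbp6 passed it without the first 1-month fibroblast array (1.02). With 6-month arrays alone Irgm1 (−0.92) and Gbp2b (−0.84) were not called, and Gbp6 (1.35) and Gbp7 (1.23) were called higher.

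Lists of other interferon genes were read beside the 9. Those tested are 10 of 11 genes for interferon-gamma, its receptor and its signalling. For type I and III interferon receptors and signalling they are 9 of 10. They also hold 17 of 19 other interferon-gamma targets, 13 of 14 genes induced by type I interferon and 13 of 13 partners at vacuoles. The last are 8 of 21 other GTPases of interferon-inducible families. The ligand gene Ifng averaged 6.03 ± 0.40 in mTEChi and between 3.73 and 5.02 in the other populations (SD, n = 6 each). It was above the pooled median in 5 of 6 mTEChi arrays and in 1 of 6 fibroblast arrays (6.53). At 6 months its mean was 5.975 in fibroblasts and 5.763 in mTEChi. The 3 measured NK cell markers also had their highest population mean in mTEChi, at 5.78 to 6.00 per array against 4.64 to 5.0 in mTEClo. Eomes alone was above the pooled median in mTEChi and none in mTEClo. In fibroblasts the marker mean ran from 4.90 to 6.39 per array. The part of these markers in the Ifng level was not tested. Against mTEClo the log2 difference of Ifng in mTEChi was 2.21 ± 0.22 (limma adjusted p = 5.43e-09). The receptor chain Ifngr1 was lower in mTEChi than in mTEClo (−1.33 ± 0.15, adjusted p = 3.25e-08), while Ifngr2, the second chain, had 0.69 ± 0.11, short of 2-fold. Ifngr2 was lower in cTEC than in the mean of mTEC (−1.14 ± 0.09), and Ifngr1 was higher in fibroblasts than in the other 5 populations (1.34 ± 0.12).

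Irf1, a factor known to bind elements like those in the printed promoters, had means from 10.11 ± 0.11 in fibroblasts to 11.19 ± 0.28 in cTEC (SD, n = 6 each), and was called in none of the 5 comparisons, although in fibroblasts it had −0.91 ± 0.11 with an adjusted p of 6.35e-08. Irf8, a factor of the same family that dendritic cells need, was highest in Sirpa- DC (12.77 ± 0.19, SD, n = 6). It was higher in mTEChi than in mTEClo (1.43 ± 0.19) and lower in Sirpa+ than in Sirpa- DC (−1.32 ± 0.19). The feedback inhibitor Socs1 lay near the pooled median everywhere, with means of 5.47 to 5.85, and Socs3, an inhibitor of cytokine receptor signalling, was lower in mTEChi than in mTEClo (−1.83 ± 0.22).

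Genes induced by type I interferon were also lower in mTEChi. Of 13 tested, 8 were called lower in mTEChi than in mTEClo (12 by unadjusted p with no fold threshold) and 0 higher by either measure. Their median difference was −1.15. Over all genes tested 7.81% were called lower, and the median difference was −0.04. The share of all genes by unadjusted p is not given for this or the other comparisons of populations. Ifit3, which restrains viral RNA translation with its relatives, differed by −2.77 ± 0.15, Rtp4 by −2.75 ± 0.18, and Ddx58, a sensor of viral RNA, by −1.88 ± 0.13 (SE; limma adjusted p from 4.38e-14 for Ifit3 to 5.94e-12 for Ddx58). Of 9 tested genes for type I and III interferon receptors and signalling, 4 were lower, led by Irf7 (−2.13 ± 0.13), the factor that amplifies interferon production, and Stat2 (−1.59 ± 0.14). Among 17 other targets of interferon-gamma 2 were called, while 19.6% of all genes tested were called in either direction. Ido1, an enzyme that breaks down tryptophan, was higher in mTEChi (2.90 ± 0.18), and Parp14 was lower (−1.38 ± 0.16). The median difference of the 17 was −0.01.

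In the comparison of DC populations 3.87% of all genes tested were called higher for Sirpa+ DC. Of the 13 genes induced by type I interferon 7 were called higher there (11 by unadjusted p with no fold threshold) and 0 lower by either measure. Their median difference was 1.17. Oasl2 (3.36 ± 0.16), Rtp4 (3.36 ± 0.18) and Ifit3 (3.35 ± 0.15) led (SE; limma adjusted p from 8.06e-15 for Ifit3 to 3.88e-13 for Rtp4). Of the 17 other interferon-gamma targets 2 were higher, Casp1 (1.55 ± 0.15), a protease of inflammasomes, and the chemokine Cxcl10 (1.42 ± 0.25).

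Between epithelium and DC, both lists had calls in both directions, beside 15.9% of all genes tested called higher and 8.6% lower. In all, 4 of the 17 other interferon-gamma targets were called higher in epithelium, among them Cxcl10 (2.55) and Cxcl11 (2.34), and 1 lower, Nlrc5 (−1.58), a regulator of MHC class I genes. Of the 13 genes induced by type I interferon 4 were higher there, led by Oasl2 (2.40) and Ifit1 (2.23), and 2 lower, Ifit2 (−1.67) and Rsad2 (−1.15).

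In cTEC, chemokine genes of the same list were low against mTEC. Cxcl9 and Cxcl11, which draw T cells, differed by −3.66 ± 0.23 and −2.58 ± 0.19 in cTEC. Of the 17 other interferon-gamma targets 6 were called lower there and 0 higher, where 8.24% of all genes tested were lower and 5.4% higher. By unadjusted p with no fold threshold 1 of the 17 was higher and 9 were lower. Cxcl10, the third of these chemokines, had −0.93 and was not called. Fibroblasts were low in most of the other targets. Of the 17 other interferon-gamma targets, 11 were lower and 0 higher, with a median of −1.37, led by Cxcl11 (−2.75 ± 0.17), Ciita, the switch for MHC class II genes (−2.53 ± 0.14), and Cd274, the ligand of PD-1 (−2.49 ± 0.14). Of the 13 type I interferon-induced genes 9 were lower, led by Usp18 (−2.89 ± 0.11), which dampens interferon signalling. Over all genes tested, 9.98% were called lower in fibroblasts and 8.37% higher. By unadjusted p with no fold threshold these lists had 14 and 12 lower and 0 higher. The thymocyte markers were highest in fibroblasts, at 8.58 to 10.92 per array, and their part in these lists was not tested.

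Among 8 other GTPases of interferon-inducible families tested, 3 were higher in Sirpa+ than in Sirpa- DC. These were Gm4951 (1.51 ± 0.18), Gbp8 (1.34 ± 0.24) and Ifi47 (1.00 ± 0.13). Whether interferon induces each of the 8, such as Irgq, was not tested. Gbp8 was also higher in mTEChi than in mTEClo (1.48 ± 0.24), while Mx1 (−1.30 ± 0.20) and Irgq (−1.10 ± 0.11) were lower. Gm4951 (3.05 ± 0.12) and Irgq (1.56 ± 0.07) were higher in epithelium than in DC, and Mx1, an antiviral GTPase induced by type I interferon, was lower (−2.32 ± 0.13). Of 13 partners at vacuoles, such as the autophagy conjugation genes that let GTPases find them, 2 were called between mTEChi and mTEClo. These were Traf6, higher (1.03 ± 0.11), and Trim21, lower (−1.24 ± 0.11). Between epithelium and DC 1 partner was called, Map1lc3a (2.06 ± 0.11 higher in epithelium). Over all genes tested, 19.6% were called between mTEChi and mTEClo, 5.37% between the DC populations and 24.5% between epithelium and DC.

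Since some of the genes were picked by it, the change at 3 months is described here without a test. At 3 months the GTPases were higher than at 1 month in the medullary epithelium and in both DC populations, and not in cTEC. Both 3-month arrays lay above both 1-month arrays for 9 of the 9 genes in mTEChi, 8 in mTEClo, 9 in Sirpa+ DC, 8 in Sirpa- DC, 5 in fibroblasts and 0 in cTEC. Over all genes tested that held for 16.7% in mTEChi, 18.7% in mTEClo, 14.3% in Sirpa+ DC, 12.3% in Sirpa- DC, 27.1% in fibroblasts and 18.3% in cTEC. The median difference of the 9 was 0.79 in mTEChi, 0.85 in mTEClo, 0.79 in Sirpa+ DC, 0.66 in Sirpa- DC, 0.22 in fibroblasts and −0.02 in cTEC.

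**Figure D4:**
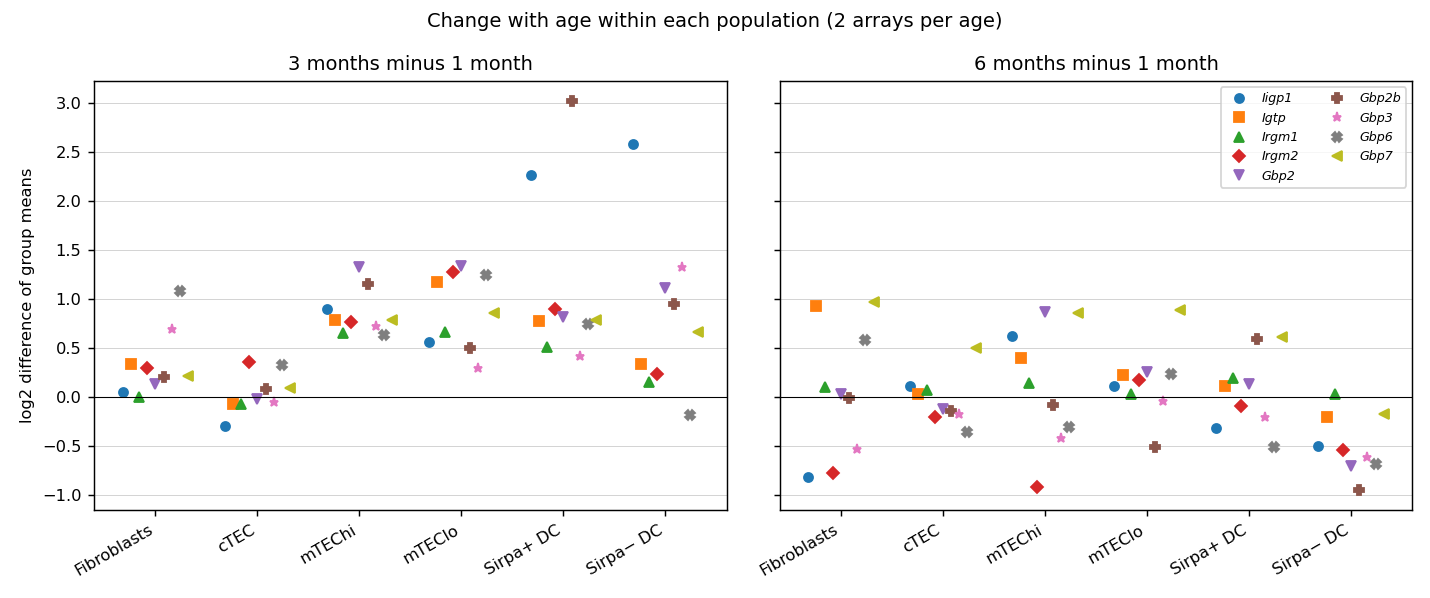
log2 difference between group means at 3 months and 1 month (left) and at 6 months and 1 month (right), 1 point per GTPase and population, 2 arrays per age. Gbp2b in Sirpa+ DC (3.02) and Iigp1 in both DC populations (2.27 and 2.58) stand above the rest at 3 months, and no change reaches 1 in either direction at 6 months.

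In dendritic cells Iigp1 was high at 3 months alone. The Sirpa- DC arrays read 7.49 and 7.38 at 1 month, 10.03 and 10.01 at 3 months, and 6.62 and 7.26 at 6 months. The Sirpa+ DC arrays read 8.72 and 8.14 at 1 month, 10.67 and 10.72 at 3 months, and 7.91 and 8.34 at 6 months. In both populations the 3-month arrays lay above all others, by 5.99-fold and 4.81-fold against 1 month. In cTEC, Iigp1 read 12.34 and 12.61 at 1 month, 12.10 and 12.27 at 3 months, and 12.46 and 12.72 at 6 months, so there the 3-month arrays were the lowest.

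Gbp2b followed the same course in Sirpa+ DC, with 5.44 and 5.49 at 1 month, 8.0 and 8.97 at 3 months, and 6.04 and 6.07 at 6 months. In mTEChi it read 6.68 and 6.85 at 1 month, 7.70 and 8.14 at 3 months, and 6.77 and 6.60 at 6 months. Neither population's 3-month arrays overlapped with those of another age.

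In mTEClo the 2-fold differences at 3 months were those of Gbp2, Irgm2, Gbp6 and Igtp, where 0.98% of all genes tested were at least 2-fold higher. Gbp2 read 10.46 and 10.54 at 1 month, 11.98 and 11.68 at 3 months, and 10.68 and 10.85 at 6 months. Irgm2 read 10.08 and 10.02 at 1 month, 11.44 and 11.22 at 3 months, and 10.22 and 10.22 at 6 months. Each of the 4 was lower again at 6 months, with both arrays below both 3-month arrays.

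Across genes, both 6-month arrays lay below both 3-month arrays for 9 genes in Sirpa- DC, 8 in Sirpa+ DC, 7 in mTEClo, 5 in mTEChi, 4 in fibroblasts and 3 in cTEC. Over all genes tested the share was 21.8% in Sirpa- DC, 23.5% in Sirpa+ DC, 26.9% in mTEClo, 19.5% in mTEChi, 34.1% in fibroblasts and 23.4% in cTEC. In Sirpa- DC the 6-month arrays also lay below both 1-month arrays for 8 of the 9 genes, with a median difference of −0.54, where 28.2% of all genes tested did so. Both 6-month arrays lay above both 1-month arrays for 6 genes in mTEClo (23.4% of all genes tested) and 5 in mTEChi (25.7%). That held for 3 in Sirpa+ DC (23.9%), 3 in fibroblasts (29.2%), 1 in cTEC (20.2%) and 0 in Sirpa- DC (27.4%). They lay below both for 1 in mTEClo (38.3%), 2 in mTEChi (19.2%) and 0 in Sirpa+ DC (32.8%). In fibroblasts it was 3 (37.6%) and in cTEC 2 (32.1%). These comparisons share the arrays of each age.

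In some populations a gene was not lower again at 6 months. In mTEClo, Gbp7 read 9.11 and 9.03 at 1 month, 9.78 and 10.07 at 3 months, and 9.87 and 10.04 at 6 months. In fibroblasts it read 9.07 and 9.21 at 1 month, 9.28 and 9.44 at 3 months, and 9.90 and 10.31 at 6 months. Its 6-month arrays were thus not below those at 3 months in either population, nor were those of Igtp in fibroblasts, which read 10.13 and 11.03 at 1 month, 10.89 and 10.94 at 3 months, and 11.41 and 11.60 at 6 months. In Sirpa- DC, Gbp7 read 6.75 and 6.74 at 1 month, 7.19 and 7.62 at 3 months, and 6.45 and 6.70 at 6 months, and there it was lower again. Irgm2 in mTEChi went the other way at 6 months, with 9.04 and 8.63 at 1 month, 9.65 and 9.56 at 3 months, and 8.40 and 7.44 at 6 months.

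**Figure D5:**
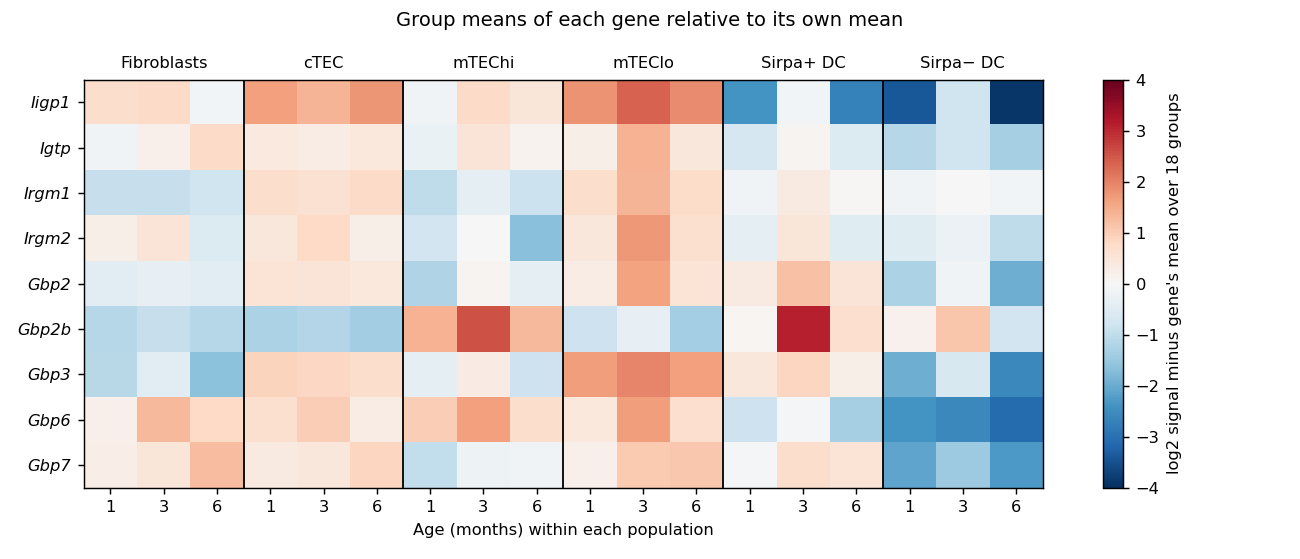
Group means of the 9 GTPases (rows) in the 18 groups (columns, by population and age in months), each as log2 signal minus the gene's mean over the groups. Among the columns of a population, the 3-month mean is the highest for 8 of the 9 genes in mTEChi, mTEClo and Sirpa- DC, for 9 in Sirpa+ DC, for 6 in fibroblasts and for 3 in cTEC; the cTEC columns differ little with age, and Gbp2b has its own pattern across populations.

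Genes of the pathway outside the 9 were tested for age with 2 arrays against 2 and called at an adjusted p under 0.05 alone. Their lists were chosen with earlier results of these data known, so their counts are no independent test. At 3 months against 1 month, limma called 10 of the 70 tested list genes in fibroblasts (20.4% of all genes tested), 3 in cTEC (5.4%), 2 in mTEClo (1.77%), 1 in Sirpa+ DC (0.331%), 1 in Sirpa- DC (0.0345%) and 0 in mTEChi. In mTEChi 0% of all genes tested were called, while 385 of 14497 genes and 4 of the 70 had an unadjusted p under 0.05, so the low counts outside fibroblasts and cTEC come with few calls over all genes. Ifng had differences between −0.25 (mTEClo) and 0.73 (cTEC) against 1 month and was called in 0 of the 6 populations. Gm4951, another immunity-related GTPase, rose in Sirpa- DC by 2.40 ± 0.31 (SE; limma adjusted p = 3.52e-04) and in Sirpa+ DC by 1.97 ± 0.31 (adjusted p = 0.00163), where 0.0138% and 0.138% of all genes tested were called higher. Tap1, a peptide transporter subunit (0.81 ± 0.20), and Trim21 (0.78 ± 0.19) rose in mTEClo, where 0.621% of genes did. In cTEC, Cxcl9 rose by 2.69 ± 0.46 (adjusted p = 6.75e-04), among 1.52% of genes, while Psmb10, a proteasome subunit (−0.97 ± 0.23), and the kinase Tyk2 (−0.57 ± 0.17) fell. In fibroblasts 4 of the list genes rose, with Gbp8 (1.35 ± 0.42) ahead of Ifit2, Cd274 and Psmb9, and 6 fell, with the receptor chains Il10rb (−1.16 ± 0.33) and Ifnar2 (−1.15 ± 0.21) ahead of Map1lc3a, Irf8, Gabarap and Map1lc3b.

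At 6 months against 1 month, Ifngr2 rose in mTEChi (1.10 ± 0.18, limma adjusted p = 5.56e-04) and in mTEClo (1.06 ± 0.18, adjusted p = 5.87e-04), among 6.17% and 2.55% of all genes tested called higher. Stat2, which carries the type I interferon signal, rose in mTEClo (1.60 ± 0.23), Sirpa+ DC (1.57 ± 0.23, 1.35% of genes higher), Sirpa- DC (1.11 ± 0.23, 0.538% of genes higher) and cTEC (0.92 ± 0.23, 2.71% of genes higher). In fibroblasts Ifng rose by 1.64 ± 0.39 and Irf8 fell by 1.91 ± 0.32, where 36.2% of all genes tested were called and the thymocyte marker mean was 10.79 at 6 months against 9.34 at 1 month. The part of the thymocyte markers was not tested. At 3 months against 1 month their mean was lower in mTEClo (5.31 against 6.44), mTEChi (5.86 against 6.37), Sirpa+ DC (7.26 against 7.85), Sirpa- DC (6.19 against 7.20) and cTEC (6.84 against 8.33). The macrophage marker mean was 10.63 at 3 months against 11.14 at 1 month in Sirpa+ DC, and 8.23 at 3 months against 7.94 at 1 month in Sirpa- DC. The plasmacytoid DC marker mean was 8.51 against 9.59 in Sirpa+ DC and 8.41 against 9.10 in Sirpa- DC, at 3 months and 1 month. The 3′ minus 5′ difference was smaller at 3 months than at 1 month in each of the 6 populations, by the least in Sirpa+ DC (1.75 against 1.78) and by the most in fibroblasts (2.11 against 2.76). The part of these values in the GTPase changes was not tested.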

How the data were processed

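The deposited table holds log2 signals of 45101 probe sets on 36 arrays. The authors normalised them with GCRMA, per the submitters' processing notes, and through Gene Expression Commons, per the series' design text. Their settings are not given here, and the base of the logarithm was inferred from the values' range. Amplified, biotin-labelled RNA of cells sorted after enzymatic digestion was hybridised, per the labels' protocols. No further scaling was applied.

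Of the probe sets, 34945 carried 1 symbol, 932 several and 9160 none, and 64 were controls. One probe set per gene (highest mean) gave 18193 genes, of which 14497 exceeded the pooled median in at least 2 arrays and were tested. limma 3.58.1 (R 4.3.3) fitted 18 group means to 36 arrays, leaving 18 residual degrees of freedom, with an intensity trend and Benjamini-Hochberg adjustment. Population comparisons were called at an adjusted p under 0.05 and 2-fold. Promoters were searched in RefSeq windows of GRCm38.p6 (Python 3.11.15). Data were simulated for mTEChi minus mTEClo over 14497 genes. There limma gave an adjusted p under 0.05 to 98 of 100 changes of 2-fold and 100 of 100 of 4-fold. The 2-fold threshold of the calls was not applied in this check.

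The members and the lists of other genes were chosen with earlier results of these data known. Named were all 9 members, Ifng, Ifngr1, Ifngr2, Irf1, Irf8 and Socs1, up to 3 called genes per list, direction and comparison by size of difference, and the 5 genes most like the member mean. Alternatives covered normalisation, filter, probe-set choice, test settings, covariates, ages and single arrays left out. The labels give no processing batch.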

Additional observations from a re-analysis of the deposited data

Results flagged for a closer look

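Among the 54 sets of 6 arrays (9 GTPases in 6 populations), 2 held an array far from the others; chance flags about 1 in 20 such sets, and the 6 arrays span 3 ages. In fibroblasts, Iigp1 read 10.1 in the second 6-month array, while the other 5 arrays lay between 11.3 and 11.7. In mTEClo, Iigp1 read 13.4 in the first 3-month array, while the other 5 lay between 12.6 and 12.9.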

How the results depend on the processing

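Of 567 values recomputed under 13 alternatives, of which the use of 1- and 6-month arrays was chosen after seeing the data, 546 kept direction and side of the threshold, 9 lost their call, 6 gained one and 6 reversed. With 36 single arrays left out in turn, 1611 of 1620 values held, 2 lost and 4 gained a call, and 3 reversed. With single arrays left out, the number of the 9 genes called stayed at 7 (mTEChi minus mTEClo), 1 (cTEC minus mTEC) and 5 (epithelium minus DC), and ran from 4 to 6 for Sirpa+ minus Sirpa- DC and from 2 to 4 for fibroblasts. It was 6 for mTEChi minus mTEClo with 6-month arrays and 6 for epithelium minus DC with the 3′ minus 5′ covariate. With the thymocyte marker mean as a covariate the fibroblast count was 0, against 3, and over all genes 651 were higher and 668 lower, against 1214 and 1447; Igtp reversed to −0.25. Irgm2 in fibroblasts reversed to −0.0258 with quantile normalisation and −0.0904 with 6-month arrays, and ran from −0.0347 (without fibroblast 6 months replicate 1) to 0.196 with single arrays left out. Gbp6 in mTEChi minus mTEClo reversed to −0.0541 with all probe sets averaged. Igtp in cTEC minus mTEC reversed to 0.12 with 6-month arrays and to 0.26 with 1- and 6-month arrays, and Gbp3 there ran from −0.0426 (without mTEChi 6 months replicate 2; −0.0384 without cTEC 3 months replicate 2) to 0.216. The cause was not tested. With the replicate number as a block the counts were 7, 1, 5, 5 and 3, as without it. Deviations of same-numbered arrays of different groups correlated above 0.1 in 17 of 45 pairs and below −0.1 in 0. The median r was 0.0862, and the highest was 0.418, between Sirpa+ DC and Sirpa- DC at 3 months. The numbers were not taken as a pairing, and whether same-numbered arrays share animals was not tested. Arrays of 2 per group and possibly shared animals limit the precision, and Gbp2b lies near background in 3 populations.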

Other observations

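Over the 18 group means, the genes outside the 9 most like their mean profile were Fggy (Pearson r = 0.90), Gm4951 (0.90), Ifi47 (0.89), Panx1 (0.89) and Arid5b (0.88). Gm4951 and Ifi47 are immunity-related GTPases. Fggy, a carbohydrate kinase, lay near the pooled median, with population means of 5.14 to 6.25. The groups share the normalisation and may share animals, and no test was made.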
